A study of Homo sapiens with 6 samples.

Results

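YAP1, WWTR1 (the gene of TAZ), TEAD1, TEAD2, TEAD3, TEAD4 and VGLL4 were examined in RNA-seq of SK-N-BE(2), an established human neuroblastoma cell line. They were chosen by name as the coactivators, DNA-binding factors and competing cofactor at the end of the Hippo pathway, and are 7 of the 58302 genes in the deposited tables. All 7 were found, and all 7 were among the 14462 genes tested, whose mean reached 1 FPKM. FPKM are fragments per kilobase of exon, scaled for depth between samples, a level per gene length. The cells carried no label other than the transfection: 3 samples labelled NC, which received a negative control small interfering RNA (siRNA), and 3 labelled siPrp19, which received siRNA against Prp19, a splicing factor encoded by PRPF19. Both groups share the cell line, the medium and the transfection, and the labels give 72 h of transfection, while the methods of the study give a shorter time. The comparison asks whether the genes that carry out Hippo-YAP signalling differ in level when Prp19 is depleted. The groups model a partial depletion, by a siRNA the study had selected for its efficiency, in 1 cell line.

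In the Hippo pathway, a kinase cascade phosphorylates YAP and TAZ and keeps them out of the nucleus. When the cascade is off, YAP and TAZ enter the nucleus and bind the TEAD factors, which supply the contact with DNA, and together they switch on genes for growth and matrix. VGLL4 has no DNA-binding domain of its own, binds TEAD factors at the surface that YAP and TAZ use, and is known as a repressive competitor. In neuroblastoma, YAP and TAZ are known mainly from the mesenchymal-type state of the cells, while the adrenergic state is driven by factors such as HAND2 and GATA3.

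The siRNA acts on PRPF19, whose level was 53.1, 53.1 and 64.9 FPKM in NC replicates 1, 2 and 3 and 21.8, 28.5 and 33.6 FPKM in siPrp19 replicates 1, 2 and 3. The siPrp19 mean was 49.0% of the NC mean. Reads on genes, recovered from the steps between low FPKM values, ranged from 19058784 to 24181789 per sample. MYCN, the oncogene amplified in this line, had a mean of 1016 FPKM over the 6 samples, HAND2 of 316.8 FPKM and GATA3 of 111.7 FPKM. Of 10 markers listed for mesenchymal-type neuroblastoma or fibroblasts, 8 had a mean of at least 1 FPKM, with a sum of 426.1 to 560.7 FPKM with NC and 425.4 to 516.5 FPKM with siPrp19. The sum, to which VIM and TWIST1 gave most, was lower with siPrp19 in 3 of 3 pairs (462.8 and 453.01, 560.7 and 516.5, 426.1 and 425.4 FPKM). Of the 8 markers, FN1, SNAI2, CD44 and FOSL1 were each lower in 3 of 3 pairs, as were 21.3% of all genes tested. The others, VIM, TWIST1, COL1A1 and COL3A1, were higher with siPrp19 in some pairs and lower in others. The first group changed in the direction of YAP1 and WWTR1 described next, and the part of these markers in those results was not tested. PRRX1, a defining mesenchymal factor, had a mean of 0.627 FPKM and COL1A2 of 0.0284 FPKM. No marker of endothelial cells or leukocytes reached a mean of 1 FPKM, and SOX10 of the Schwann cell list and CD3E of the leukocyte list were at 0 in every sample. In bulk RNA, fewer cells of a type and less RNA per cell cannot be told apart.

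YAP1, WWTR1 and VGLL4 were lower with siPrp19 in every pair of same-numbered samples and without overlap between the groups, whereas none of the TEAD factors separated the groups. YAP1 had 51.3% of its NC mean, WWTR1 76.9% and VGLL4 74.3%. TEAD1 to TEAD4 had 108.3%, 95.6%, 106.4% and 120.6%. With limma on log2(FPKM + 0.1) and Benjamini-Hochberg adjustment over all genes, none of the 7 genes passed an FDR of 0.05, and neither did any of the 14462 genes tested (0.0%). PRPF19, the target of the siRNA, was among those that did not pass (log2 fold change −1.04, adjusted p = 0.9999 by limma). A gene not called in this fit is therefore not shown to be unchanged. At an unadjusted p under 0.05 there were 2 of the 7, YAP1 and VGLL4, against 1.56% of all genes tested. Groups without overlap, siPrp19 below NC, occurred in 3 of the 7, against 2.84% of all genes, and groups without overlap in the other direction in 0 of the 7, against 2.77%. Lower levels in 3 of 3 pairs were found in 3 of the 7, against 21.3% of all genes, and higher levels in 3 of 3 pairs in 1 of the 7, TEAD4, against 19.2%.

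**Figure D1:**
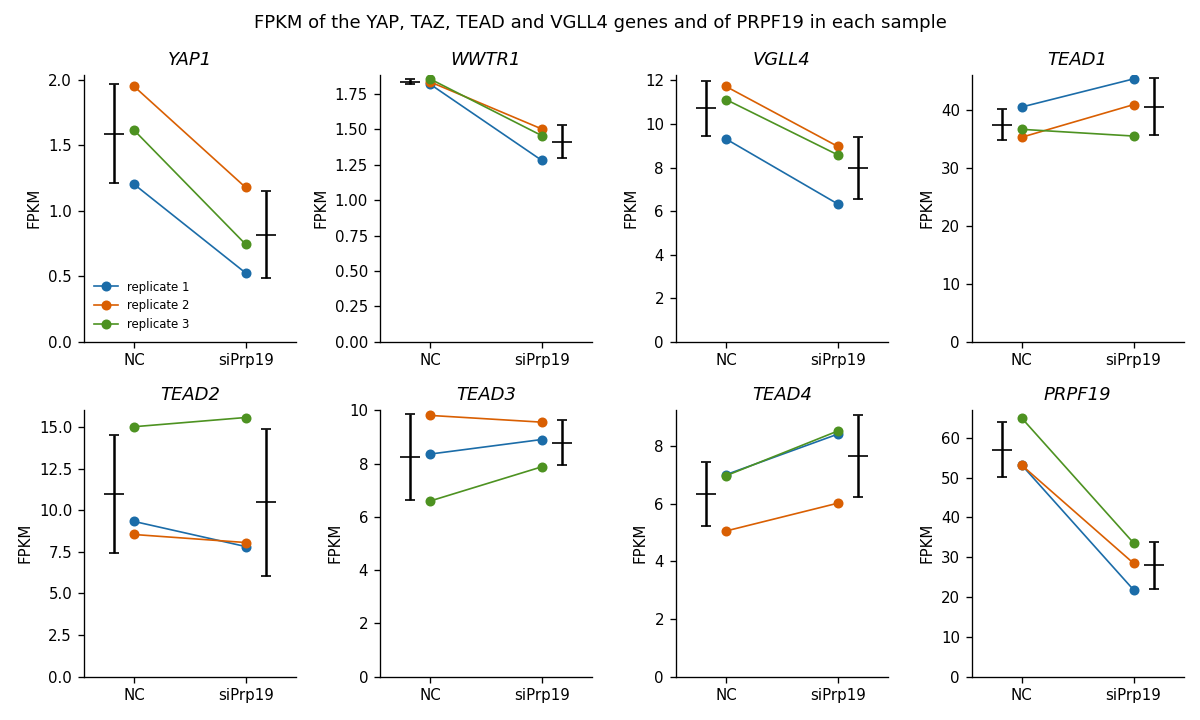
FPKM (vertical axes, each from 0) of the 7 genes and of PRPF19 in NC and siPrp19 samples, with lines joining samples of the same replicate number and black bars for the mean and SD of 3 samples. All 3 lines of YAP1, WWTR1, VGLL4 and PRPF19 slope down and all 3 of TEAD4 slope up, and replicate 3 of TEAD2 lies at 15.0 and 15.6 FPKM, above the other replicates of both groups.

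The replicate numbers of the labels pair the samples, since same-numbered samples deviated together from their group means. With the replicate number as a block, limma on log2 FPKM still called none of the 7 genes at an FDR of 0.05, with unadjusted p-values under 0.05 for 4 of the 7 (YAP1, WWTR1, VGLL4 and TEAD4) against 15.7% of all genes. When limma voom was run on recovered reads, again blocked by replicate number, YAP1, WWTR1 and VGLL4 fell at an FDR under 0.05. In that fit 4.64% of the 13602 genes with recovered reads fell and 2.93% rose, and no TEAD factor was among them. PRPF19 fell in the voom fit with the block (adjusted p = 1.89e-12 by limma). It was not called by limma on log2 FPKM with the block (adjusted p = 0.19).

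YAP1 (ENSG00000137693) encodes YAP, the main effector of the pathway. It lies on the plus strand of chromosome 11 of GRCh38, chr11:102110461-102233423. The 300 bases around the RefSeq start site of YAP1 hold 1 copy of the core letters of the TEAD site, and YAP1 was the only gene of the 5 searched with a match. The letters searched were GGAATG on either strand, in windows from 250 bases before to 50 bases after a RefSeq start site in build GRCh38.p14. Of 35116 such windows, 14.03% held a match. Promoters of YAP1, WWTR1, TEAD2, TEAD3 and VGLL4 were searched, 11 windows in all, and TEAD1 and TEAD4 had no entry. With 1 match in these 11 windows, the genes searched did not exceed the share over all windows. The match in YAP1 starts at position −162 from the start site, and it is shown with its neighbouring bases on the plus strand, chr11:102110273-102110302, with the match in capitals. A match describes the letters only and is not evidence of binding.
YAP1 promoter: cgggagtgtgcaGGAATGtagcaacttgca

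In NC replicates 1, 2 and 3, YAP1 had 1.20, 1.95 and 1.61 FPKM, and in siPrp19 replicates 1, 2 and 3 it had 0.524, 1.18 and 0.743 FPKM. Every siPrp19 sample was below every NC sample, but the lowest NC sample and the highest siPrp19 sample nearly met. These values rest on 165, 216 and 201 reads with NC and on 75, 154 and 116 reads with siPrp19. The exact 95% Poisson interval was 1.03 to 1.40 FPKM in NC replicate 1 and 0.998 to 1.38 FPKM in siPrp19 replicate 2, so the absence of overlap between the groups is within the counting error of these samples. Within pairs, the difference was clear of counting error in each case, since the interval of each siPrp19 sample lay below that of the NC sample with the same number. The change within pairs was −1.06, −0.68 and −1.02 on the log2(FPKM + 0.1) scale, which understates the change of a gene as low as this. For YAP1 limma gave a log2 fold change of −0.92 (95% interval −1.80 to −0.05, standard error 0.37, adjusted p = 0.9999), and permuting the samples exactly gave a two-sided p of 0.10, the smallest that 3 samples against 3 allow. Under voom and the replicate block it was −0.98 (standard error 0.15, adjusted p = 5.73e-05 by limma). PRPF19 changed by −1.28, −0.90 and −0.95 in the same pairs, so pair 1 had the largest decrease of both genes and pair 2 the smallest. For PRPF19, pairs 2 and 3 were close. The order of 3 pairs is a description, and a relation between the decreases of YAP1 and PRPF19 was not tested.

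WWTR1 (ENSG00000018408, chr3:149517235-149736714, minus strand) encodes TAZ, the paralog of YAP. It had 1.82, 1.84 and 1.86 FPKM with NC and 1.28, 1.504 and 1.46 FPKM with siPrp19. The NC samples lay closer together than the counting of reads alone would give on average, with a coefficient of variation of 1.00% against 5.75% from counting, so their spread is a poor guide to the error of this gene. The siPrp19 samples were all lower, with a coefficient of variation of 8.27% against 6.10% from counting. The exact 95% Poisson intervals of replicate 2 overlapped within the pair, at 1.62 to 2.07 FPKM with NC and 1.33 to 1.697 FPKM with siPrp19, so the separation of the WWTR1 groups is also within counting error. The intervals of replicates 1 and 3 did not overlap within their pairs. The log2 fold change was −0.36 (standard error 0.19, 95% interval −0.81 to 0.10, adjusted p = 0.9999 by limma), with a p of 0.10 by exact permutation. Under voom and the block, limma found that WWTR1 fell by 0.38 on the log2 scale (standard error 0.11, adjusted p = 0.0239). The antisense gene WWTR1-AS1 shares 9.45% of the exon bases of WWTR1 and had at most 8 reads in any sample, against 245 to 334 for WWTR1.

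**Figure D2:**
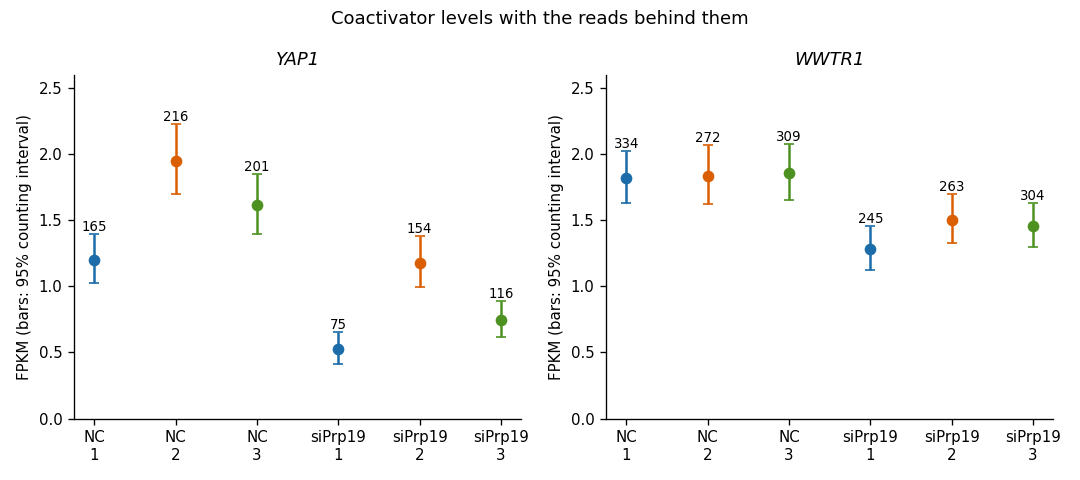
FPKM of YAP1 and WWTR1 in each sample (vertical axes from 0), with exact 95% Poisson intervals as bars and the number of reads above each point. The intervals of YAP1 in NC replicate 1 (165 reads) and siPrp19 replicate 2 (154 reads) overlap, and the 3 NC points of WWTR1 lie nearly level at 1.82 to 1.86 FPKM.

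A difference between the changes of YAP1 and WWTR1 was not shown. WWTR1 was 1.51, 0.942 and 1.15 times YAP1 in NC replicates 1, 2 and 3 and 2.44, 1.28 and 1.96 times YAP1 in the siPrp19 replicates. The ratio moved toward WWTR1 in 3 of 3 pairs, but the groups overlapped. Within pairs the log2 ratio of YAP1 to WWTR1 changed by −0.69, −0.44 and −0.77. The exact sign-flip permutation test of these changes gave p = 0.25, the smallest that 3 pairs allow. The log2 ratio of YAP1 to WWTR1 was −0.24 ± 0.34 (SD, n = 3) with NC and −0.87 ± 0.48 (SD, n = 3) with siPrp19, a difference of −0.63 with p = 0.20 by exact two-sided permutation (0.53 adjusted over 8 sums, shares and ratios).

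VGLL4 (ENSG00000144560, chr3:11556070-11771350, minus strand) encodes the cofactor that competes with YAP and TAZ for TEAD. It had 9.31, 11.7 and 11.1 FPKM with NC and 6.33, 8.97 and 8.58 FPKM with siPrp19. The groups did not overlap, and replicate 1 was the lowest sample of each group. The change within pairs was −0.55, −0.38 and −0.37 on the log2 scale. The log2 fold change was −0.43 (standard error 0.18, 95% interval −0.85 to −0.01, adjusted p = 0.9999 by limma), with p = 0.10 by exact permutation. Voom and the replicate block gave −0.43 as well, with a standard error of 0.06 and an adjusted p of 3.3e-05 by limma. VGLL4 was also called by limma on log2 FPKM with the block once genes under a mean of 5 FPKM were left out (adjusted p = 0.0377). VGLL4 rests on 1041 to 1592 reads per sample. ATG7, an autophagy gene on the opposite strand, shares 22.1% of the exon bases of VGLL4 and had 138 to 213 reads. ATG7 was at 0.986, 0.900 and 1.12 FPKM with NC and 0.688, 0.811 and 0.972 FPKM with siPrp19. The strand setting of the counting is not given in the sources used here, and the part of shared reads in the VGLL4 result was not tested.

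The other vestigial-like genes were nearly silent. VGLL1 and VGLL2 were listed at 0 in every sample. VGLL3, a cofactor that also binds TEAD factors, had 16, 37 and 6 reads with NC and 7, 5 and 4 reads with siPrp19, at most 0.165 FPKM, and was too low to be tested. VGLL4 was therefore the only one of the 4 vestigial-like genes above a mean of 1 FPKM.

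**Figure D3:**
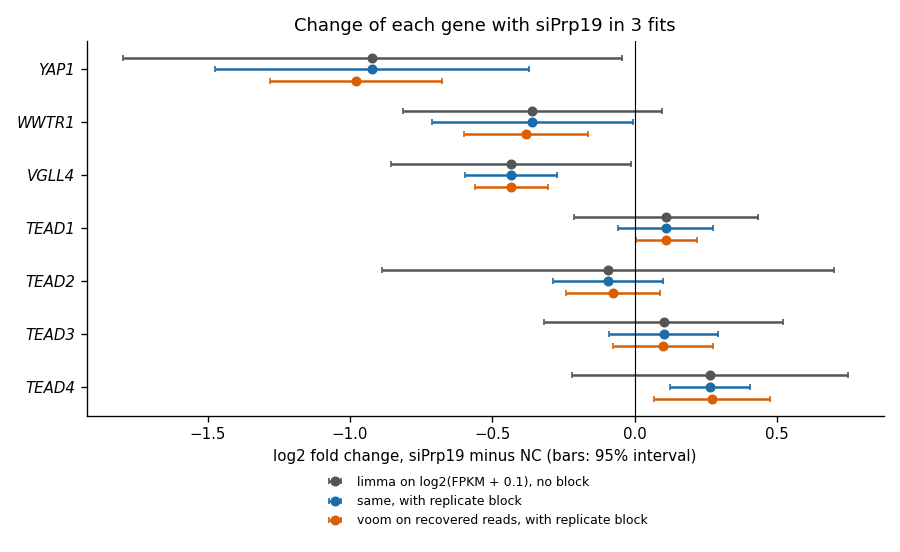
Log2 fold change (siPrp19 minus NC, horizontal axis) of the 7 genes in 3 fits, with 95% intervals as bars. The points of YAP1, WWTR1 and VGLL4 lie below 0 in each of the 3 fits and those of TEAD1, TEAD3 and TEAD4 above 0, and the standard error of YAP1 is 0.37 without the block, 0.21 with it on log2 FPKM, and 0.15 with it in voom on reads.

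The TEAD factors bind the same DNA letters through the conserved TEA domain and differ mainly in where they are expressed. TEAD1 (ENSG00000187079, chr11:12674591-12944483, plus strand) dominated them. It had 40.5, 35.3 and 36.7 FPKM with NC and 45.4, 40.9 and 35.5 FPKM with siPrp19, at percentile 93.2 of the mean levels of all genes tested. The groups overlapped, with higher values in 2 of 3 pairs, and the log2 fold change was 0.11 (standard error 0.14, 95% interval −0.21 to 0.43, adjusted p = 0.9999 by limma). This interval, from the fit without the block, leaves room for changes from 0.862-fold to 1.35-fold. With the replicate block on log2 FPKM the 95% interval was −0.057 to 0.277 (adjusted p = 0.467 by limma). Voom with the block gave 0.11 (95% interval 0.0045 to 0.219, adjusted p = 0.216 by limma).

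TEAD2 (ENSG00000074219, chr19:49340595-49362457, minus strand) is known as a factor of early embryos and neural progenitors. It had 9.32, 8.54 and 15.0 FPKM with NC and 7.81, 8.05 and 15.6 FPKM with siPrp19. Replicate 3 was far above the others in both groups, 1.68-fold above the mean of replicates 1 and 2 on the log2 scale with NC and 1.95-fold with siPrp19, while the siPrp19 and NC samples of a pair differed by −0.25, −0.08 and 0.05. CD37, on the opposite strand, shares 10.7% of the exon bases of TEAD2 and had 62 to 103 reads, against 448 to 1151 for TEAD2. The log2 fold change was −0.09 (standard error 0.33 without and 0.07 with the replicate block), and its sign turned when NC replicate 3 or siPrp19 replicate 1 or 2 was left out.

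TEAD3 (ENSG00000007866, chr6:35473597-35497076, minus strand) is known for expression in placenta. TEAD3 had 8.35, 9.81 and 6.59 FPKM with NC and 8.90, 9.55 and 7.87 FPKM with siPrp19, and replicate 3, the highest of each group for TEAD2, was the lowest of each group. The log2 difference of TEAD3 was 0.10 by limma (adjusted p = 0.9999, standard error 0.18), and −0.04 without NC replicate 3. TEAD4 (ENSG00000197905, chr12:2959330-3040673, plus strand), known for its role in the first lineage decision of the embryo, had 7.002, 5.05 and 6.96 FPKM with NC and 8.41, 6.01 and 8.52 FPKM with siPrp19. Its samples were higher with siPrp19 in 3 of 3 pairs by 0.26, 0.25 and 0.29 on the log2 scale, but the groups overlapped because replicate 2 was low in both. By limma the TEAD4 difference was 0.26 on the log2 scale (adjusted p = 0.9999, standard error 0.20). Blocking by replicate lowered the standard error to 0.05 and the adjusted p of limma to 0.204, and voom with the block gave TEAD4 an adjusted p of 0.0962.

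Summed over TEAD1 to TEAD4, the factors had 65.2, 58.7 and 65.2 FPKM with NC and 70.5, 64.5 and 67.5 FPKM with siPrp19. YAP1 and WWTR1 together had 3.02, 3.78 and 3.47 FPKM with NC and 1.81, 2.68 and 2.20 FPKM with siPrp19. TEAD transcripts thus outnumbered the coactivator transcripts 21.6, 15.5 and 18.8 to 1 in the NC samples and 39.0, 24.1 and 30.7 to 1 in the siPrp19 samples. The groups did not overlap in this ratio. On the log2 scale, the ratio of the coactivator sum to the TEAD sum was −4.21 ± 0.24 (SD, n = 3) with NC and −4.94 ± 0.35 (SD, n = 3) with siPrp19, a difference of −0.73 with p = 0.10 by exact permutation, the smallest possible, and 0.40 adjusted over the 8 quantities. The TEAD sum differed by 0.10 on the log2 scale (p = 0.30, exact permutation test), with higher values in 3 of 3 pairs by 0.11, 0.14 and 0.05, and the coactivator sum by −0.63 (p = 0.10, exact permutation test, without overlap). These ratios are of mRNA per exon length and say nothing of protein.

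**Figure D4:**
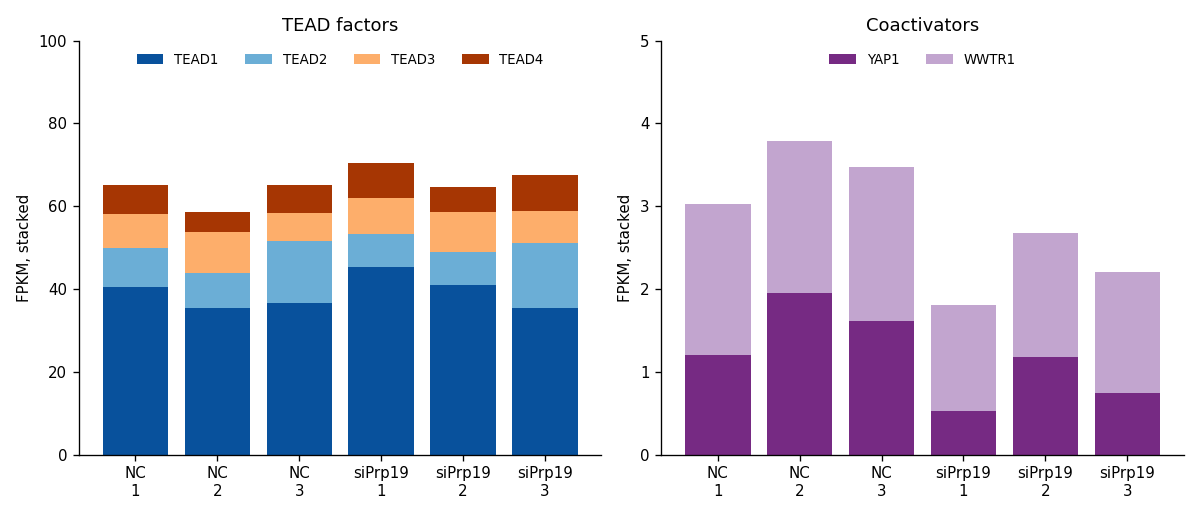
FPKM of TEAD1 to TEAD4 (left) and of YAP1 and WWTR1 (right), stacked, in each sample, with vertical axes from 0 on different scales. The TEAD bars reach 58.7 to 70.5 FPKM in both groups, while the coactivator bars reach 3.02 to 3.78 FPKM with NC and 1.81 to 2.68 FPKM with siPrp19.

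TEAD1 made up 59.5 ± 3.03% (SD, n = 3) of the TEAD sum with NC and 60.1 ± 6.52% (SD, n = 3) with siPrp19. TEAD2 made up 17.3 ± 4.96% and 15.5 ± 6.56%, TEAD3 13.2 ± 3.32% and 13.03 ± 1.60%, and TEAD4 10.0 ± 1.22% and 11.3 ± 1.74% (SD, n = 3 each). In the unpaired exact two-sided permutation test the shares gave p-values of 0.90, 0.60, 0.90 and 0.40. The TEAD4 share was higher with siPrp19 in 3 of 3 pairs, by 1.19, 0.713 and 1.95 percentage points, with p = 0.25 in the exact sign-flip permutation test, the smallest that 3 pairs allow. Between replicates the shares moved more than between groups. TEAD2 was 23.0% of the sum in NC replicate 3 and 23.1% in siPrp19 replicate 3, against 11.1% to 14.5% in the other samples, and TEAD1 was lowest in replicate 3 of each group.

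Ordered by mean level over the 6 samples, TEAD1 stood first, followed by TEAD2, VGLL4, TEAD3 and TEAD4, and then by WWTR1 and YAP1. TEAD1 exceeded TEAD2 in 6 of 6 samples, 3.76-fold on average, and TEAD4 exceeded WWTR1 in 6 of 6 samples, 4.08-fold on average. Each had p = 0.0313 in an exact two-sided sign-flip permutation test within samples, the smallest that 6 samples allow. After adjustment over the 6 neighbouring pairs it was 0.0938. The test takes the 6 samples as independent, although same-numbered samples deviated together. With the 3 replicate numbers as units, the smallest p of a sign-flip test is 0.25. TEAD2, VGLL4, TEAD3 and TEAD4 could not be ranked against their neighbours, with differences in either direction among the samples and exact permutation p-values of 0.469, 0.531 and 0.188. WWTR1 exceeded YAP1 in 5 of 6 samples, 1.42-fold on average (p = 0.0625 by the exact permutation test). This average pools the groups, and WWTR1 was the higher gene in 2 of 3 NC and 3 of 3 siPrp19 samples. The middle of the order also differed by group, since with siPrp19 the mean of TEAD3 (8.78 FPKM) was above that of VGLL4 (7.96 FPKM). At percentile 5.54 and 14.2 of the mean levels of all genes tested, YAP1 and WWTR1 were among the lowest genes that could be tested, while the TEAD factors stood at percentile 56.0 or higher.

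The order depends on the length that reads are divided by. The deposited FPKM use the union of all exons of a gene, which is 8413 bases for WWTR1 and 7236 bases for VGLL4, against 5030 and 3725 bases for the longest protein-coding transcript of each. Per length of that transcript, VGLL4 passed TEAD2 to stand second with a mean of 18.01, and TEAD4 passed TEAD3 (9.33 against 8.63). TEAD1 stayed first, and WWTR1 and YAP1 stayed last, at 2.70 and 1.39. No stretch of 100 bases of the longest coding transcripts of the 7 genes occurred in a transcript of another gene, and the processed pseudogene YAP1P1 had at most 2 reads in any sample. Gene-level values do not separate spliced from unspliced transcripts or isoforms.

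**Figure D5:**
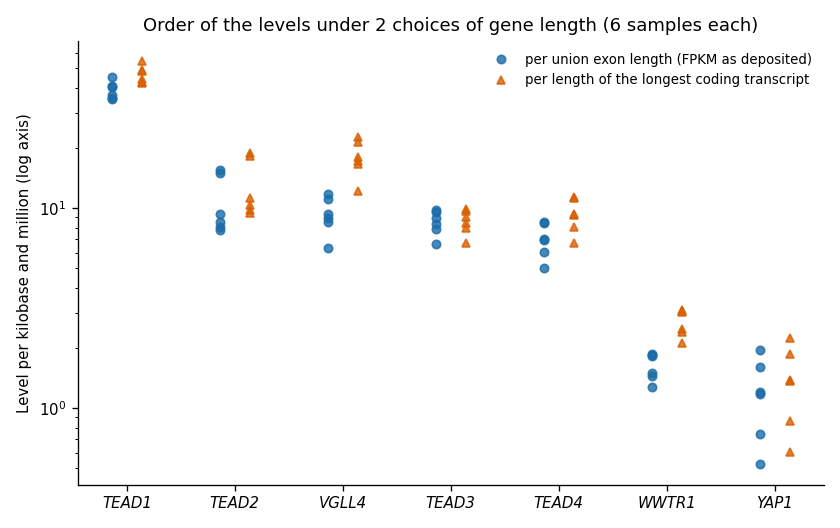
Levels of the 7 genes in the 6 samples (log axis), as deposited per union exon length (circles) and per length of the longest coding transcript (triangles). TEAD1 stands above and WWTR1 and YAP1 stand below the other genes under both lengths, and VGLL4 moves up from about the level of TEAD2, with a factor of 1.94.

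For each gene, the genes with the most similar profile were sought among all genes tested, by the root mean square difference of log2(FPKM + 0.1) over the 6 samples after centring. This is a description over 6 samples that share replicate numbers and treatment. Because the genes were selected by their profile, a shared direction within pairs or order of replicates follows from the selection. Closest to YAP1 were FAM207BP (difference 0.11), RN7SKP87 (0.14), CEMIP (0.18), RPL29P24 (0.18) and ATP1B1 (0.20). FAM207BP, RN7SKP87 and RPL29P24 carry the symbols of pseudogenes and had means of at most 2.23 FPKM. CEMIP, a hyaluronan-binding protein, had 9.75, 17.9 and 13.2 FPKM with NC and 4.94, 11.3 and 9.13 FPKM with siPrp19, and ATP1B1, a subunit of the sodium pump, had 64.6, 94.5 and 81.2 FPKM and 39.2, 71.4 and 55.4 FPKM. Both were lower in 3 of 3 pairs, with replicate 2 highest and replicate 1 lowest in each group, as YAP1 was.

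Closest to WWTR1 were GJA1, the gene of connexin 43, and SLC25A24, each with a difference of 0.04, and OTULIN (0.05). GJA1 had 3.32, 3.59 and 3.46 FPKM with NC and 2.38, 2.72 and 2.76 FPKM with siPrp19. Closest to VGLL4 were YWHAZ, which encodes a 14-3-3 protein (0.04), ACSL3 (0.06) and CISD2 (0.08). YWHAZ had 71.7, 82.7 and 81.4 FPKM with NC and 46.0, 63.8 and 60.4 FPKM with siPrp19.

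The TEAD factors had other neighbours. TEAD2 was closest to ATAD3A (0.03), TIMM23B (0.04) and MICALL1 (0.05), which were likewise highest in replicate 3 of both groups. TEAD3 was closest to PELP1 (0.02), BOLA1 (0.03) and AC108010.1 (0.03), which were lowest there. TEAD4 was closest to UNC80 (0.03), TMCC2 (0.05) and DIRAS1 (0.05), which were lowest in replicate 2 of both groups and higher with siPrp19 in 3 of 3 pairs. TEAD1 varied too little, by 0.36 on the log2 scale, to be compared in this way.

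Of 20 genes listed for the Hippo core upstream of these factors, 16 could be tested and 0 passed an FDR of 0.05 by limma. Their log2 fold change was below 0 in 12 of 16, with a median of −0.10, against 7373 of 14462 and −0.0040 over all genes tested. It was lowest for WWC2, a KIBRA family scaffold (−0.36), and highest for TAOK2, an upstream kinase (0.12). Under voom with the replicate block, 3 of 16 fell and 0 rose, beside 4.64% and 2.93% of all genes in that fit: MOB1A and MOB1B, the cofactors of the LATS kinases, and WWC2. Of 22 genes of a published YAP/TAZ target signature, 3 of which are also in the first list, 16 could be tested and 0 passed. Here 13 of 16 were below 0, with a median of −0.20. The extremes were ANKRD1 (−1.18, standard error 1.08) and ARHGEF17 (0.23, standard error 0.10).

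ANKRD1, a classical YAP target, had 6.09, 7.95 and 0.996 FPKM with NC and 2.42, 4.50 and 0.306 FPKM with siPrp19. It was lower in each pair and low in replicate 3 of both groups, unlike YAP1 and WWTR1, whose replicate 3 lay between replicates 1 and 2 or close to them. Under voom with the block, 7 of the 15 signature genes with recovered reads fell and 0 rose, beside 4.64% and 2.93% of all genes. ARHGEF17, the highest gene of the signature, was not in that fit, because its reads did not come out whole. They were ANKRD1, CCN2, CCN1, CRIM1, NT5E, IGFBP3 and RBMS3. NT5E, the ecto-enzyme CD73, had 8.42, 7.40 and 7.34 FPKM with NC and 6.30, 5.10 and 5.28 FPKM with siPrp19, without overlap between the groups. ARHGEF17 lay the other way without overlap, at 23.9, 23.04 and 21.9 FPKM with NC and 26.9, 26.4 and 27.5 FPKM with siPrp19. Each was the only 1 of the 16 tested genes of the signature to separate the groups in its direction. Over all genes tested, 2.84% separated them with siPrp19 below NC and 2.77% with siPrp19 above. A single gene each way is too few to tell from these shares.

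AP-1 factors often occupy the same enhancers as YAP, TAZ and TEAD. Of 7 listed AP-1 genes, 6 could be tested, 0 passed by limma and all 6 had a log2 fold change below 0, with a median of −0.11, against 7373 of 14462 and −0.0040 over all genes tested. It ranged from −0.71 for FOSL1 (standard error 0.57) to −0.07 for JUND (standard error 0.22). With voom and the block, 2 of the 6 fell, FOS and FOSL1, and no AP-1 gene rose, beside 4.64% and 2.93% of all genes. FOSL1 had 8.89, 20.6 and 7.23 FPKM with NC and 3.94, 14.3 and 5.25 FPKM with siPrp19, so replicate 2 was the highest sample of each group, as for YAP1.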

How the data were processed

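RNA-seq of 3 NC and 3 siPrp19 samples of SK-N-BE(2) cells was used, and the groups and replicate numbers come from the sample labels. The authors deposited FPKM per Ensembl gene. The submitters' processing notes name HISAT2 2.0.5, featureCounts 1.5.0-p3 and hg38, and the annotation release and strand setting are not given in the sources used here. Symbols, coordinates and exon lengths were taken from GENCODE release 29 (GRCh38), which holds 58039 of the 58302 identifiers. FPKM times exon length was a whole number of steps (within 0.02 reads) in all samples for 95.8% of the 37521 of these genes above 0 in any sample, and the step was taken as 1 read. All 7 genes described were among them.

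Median-of-ratios factors were equal in all samples (1.00736), so the deposited FPKM were already on that scale. The alternative fit on FPKM as deposited therefore nearly repeats the main fit. The main test was limma 3.58.1 in R 4.3.3 on log2(FPKM + 0.1) with a trend, over the 14462 genes whose mean reached 1 FPKM, without a block, since the study names none, and with Benjamini-Hochberg adjustment. limma voom used library sizes set by the median-of-ratios factors of the recovered reads. Deviations of same-numbered NC and siPrp19 samples from their group means correlated across genes with r of 0.38, 0.57 and 0.64 for replicates 1, 2 and 3, which is the basis of the replicate block. Exact tests were two-sided (scipy 1.17.1, Python 3.11.15). Counting intervals and reads cover counting error only. The study calls its samples biological replicates, but the labels do not say that they came from separate cultures, so p-values measure the spread between these samples.

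Alternatives were other pseudocounts (1 and 0.01), filters, scalings and lengths, the block, voom, a robust eBayes fit without a trend, and leaving out each sample. The members, gene lists and alternatives were chosen with earlier results of these data known. Genes named beside the members are those with the nearest profiles (5 for YAP1, 3 for others spanning at least 0.5 on the log2 scale), the lowest and highest of each list, the other VGLL genes, and overlapping or pseudogene loci. The list genes that voom with the block called were named after their values were seen. One list of cell type markers is not reported here.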

Additional observations from a re-analysis of the deposited data

How the results depend on the processing

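With limma without a block, 0 genes passed an FDR of 0.05 (225 at an unadjusted p under 0.05), and none of the 7 genes did. The count of genes called was 124 with the replicate block on genes averaging 5 FPKM or more, 1 in eBayes without trend and robust, and 1030 in voom on recovered reads with the replicate block. It was 0 with the block alone, in voom without it, in every other setting and without each sample in turn. The 1 gene was MIR6889, 59 bases long, with 2 to 4 reads in NC samples and 0 with siPrp19, named after its values were seen. Of the 7 genes, 1 was called in that setting of block and filter (VGLL4, −0.43), a filter that leaves out YAP1 and WWTR1, and 3 in voom with the replicate block (YAP1 −0.98, WWTR1 −0.38, VGLL4 −0.43). The pairing changed no other call of the 7. Over the settings with all samples the log2 fold change ran from −1.01 to −0.52 for YAP1, where a pseudocount of 1 gave −0.52, from −0.38 to −0.23 for WWTR1 and from −0.44 to −0.39 for VGLL4. Without 1 sample it ran from −1.19 to −0.68, from −0.40 to −0.29 and from −0.53 to −0.28. The adjusted p over the settings with all samples ran from 5.73e-05 to 1.0 for YAP1, from 0.0239 to 1.0 for WWTR1 and from 3.3e-05 to 1.0 for VGLL4.

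The signs of TEAD2 and TEAD3 rest on single samples, with ranges of −0.41 to 0.16 and −0.043 to 0.24 without 1 sample. The shares of TEAD1, TEAD2 and TEAD3 in the TEAD sum turned as well, with differences of −1.48 to 4.38, −5.51 to 1.13 and −1.73 to 1.58 percentage points. TEAD1 (0.03 to 0.20) and TEAD4 (0.11 to 0.43) kept their sign in every setting. No neighbouring pair in the order of levels passed an adjusted p of 0.05 in any setting. With 5 samples or the 3 NC samples alone the sign-flip test cannot reach it. Sums and ratios had no setting past 0.05, which 3 samples against 3 cannot reach. Of the 7 genes, depth limits YAP1 most, with 75 to 216 reads per sample. Its samples also spread more than counting alone would give. The coefficient of variation of YAP1 was 23.6% against 7.23% from counting with NC, and 40.8% against 9.74% with siPrp19.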
